A study of Mus musculus with 11 samples.

Results

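The proteins that build the skeleton of the axon were examined in sorted trigeminal sensory neurons of mice with and without an oral carcinoma line. The 10 genes were taken by name from the gene tables: the neurofilament subunits Nefl, Nefm and Nefh, the related filament genes Ina and Prph, the tubulins Tubb3 and Tuba1a, the microtubule-associated proteins Map1b and Map2, and the microtubule regulator Stmn2. These members are 10 of the 55401 genes listed, and all 10 passed the filter on low counts. The choice used no measured value from these libraries, although earlier results of these data were known when it was made.

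The libraries were made from trigeminal ganglion neurons, which carry sensation from the face and mouth, and which had taken up the retrograde tracer DiI and were sorted by its fluorescence. The MOC1 group came from mice bearing MOC1 tumours, a line of oral squamous cell carcinoma from mice, and held 3 female and 3 male libraries. The sham group held 3 female and 2 male libraries from mice without a tumour, which were injected with DiI as well. Neither age nor strain is given in the labels used here, and bilateral ganglia were harvested, so a library can hold neurons from both sides of the head. Whether each library is a separate animal is not stated, so p-values measure the spread between these libraries, which may in part be technical.

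Neurofilaments are heteropolymers of a light, a medium and a heavy subunit, together with alpha-internexin (Ina) or peripherin (Prph), and they set the calibre of axons. In sensory ganglia the neurofilament subunits are known for their high levels in large neurons with myelinated axons, whereas peripherin is known for small neurons with unmyelinated axons. Microtubules are polymers of alpha- and beta-tubulin. They carry transport along the axon, are bound and bundled by microtubule-associated proteins, and are made less stable by stathmins such as Stmn2 (also called SCG10).

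Gene counts ran from 10757426 to 16703797 per library, with between 14180 and 19078 genes detected. The labelled cell type was checked with 23 pan-neuronal genes, none of them a member or on the lists of other axonal skeleton genes counted below. They summed to between 11182 and 11800.2 CPM (gene counts scaled to a common library total) in MOC1 libraries and between 8780 and 10166 CPM in sham libraries. RNA of satellite glia, which ensheathe the bodies of sensory neurons, was present in all libraries. Their 14 markers summed to between 3435 and 6382 CPM in MOC1 libraries and between 10301 and 11864 CPM in sham libraries. Both lists separated the groups without overlap (adjusted p = 0.00541 for each, two-sided exact permutation test over 462 regroupings, adjusted over 10 marker lists). In such bulk samples, fewer cells of a type and less RNA per cell cannot be told apart. Sham female 1 held the highest endothelial marker sum, at 1404 CPM. Leaving it out together with MOC1 female 3 and MOC1 male 2, which had the fewest genes detected, changed no call among the 10 genes, but it took the log2 difference of Nefh from 0.26 to 0.09 and that of Nefm from 0.27 to 0.14.

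The starts of 4 of the genes are shown: Prph, Tubb3 and Map1b, which had higher levels in MOC1 libraries, and Ina, which did not. Whether the elements near the start site bear on these levels was not tested. A GC box occurs in all 4, and no window was available for Stmn2, which was also higher. Each run is the 120 bases just before the transcription start in RefSeq (GRCm38.p6), read 5′ to 3′ along the gene. Of these RefSeq starts, only that of Prph meets the start of the gene span given below. The Tubb3 run lies inside its gene span, and the runs of Map1b and Ina end before their spans begin. Capitals mark exact matches, on either strand, to the TATA box (TATAAA), the GC box (GGGCGG) and the CCAAT box (CCAAT).
Prph, chr15:99055054-99055173, plus strand: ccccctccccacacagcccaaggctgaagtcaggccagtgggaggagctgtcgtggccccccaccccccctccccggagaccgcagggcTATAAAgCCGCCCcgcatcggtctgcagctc
Tubb3, chr8:123411433-123411552, plus strand: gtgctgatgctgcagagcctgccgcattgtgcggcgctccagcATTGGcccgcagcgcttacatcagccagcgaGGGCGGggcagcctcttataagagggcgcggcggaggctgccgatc
Map1b, chr13:99516603-99516722, minus strand: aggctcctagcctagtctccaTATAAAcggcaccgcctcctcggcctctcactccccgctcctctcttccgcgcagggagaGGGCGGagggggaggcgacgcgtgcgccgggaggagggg
Ina, chr19:47014561-47014680, plus strand: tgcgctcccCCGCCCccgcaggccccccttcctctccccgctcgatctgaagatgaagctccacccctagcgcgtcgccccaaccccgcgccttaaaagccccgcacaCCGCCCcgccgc

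Positions count from the RefSeq start, with -1 the base before it, and give the first base of a match. They would shift if the start were placed elsewhere. Prph has a TATA box at -31 followed by a GC box at -24. Tubb3 has a CCAAT box, read on the opposite strand, at -77 and a GC box at -46. Map1b has a TATA box that lies further out, at -99, and a GC box at -39. Ina has GC boxes at -111 and -12 and no other of these elements in the run. Promoter windows of 300 bases, 250 before and 50 after the start, were available for 6 of the 10 genes, these 4 with Tuba1a and Map2. The RefSeq starts of Tuba1a and Map2 also lie inside their gene spans. All 6 windows held a GC box, against 35.7% of the 32851 windows in the table. The TATA box occurred in 2 of 6, against 13.6% of all windows, and the CCAAT box in 2 of 6, against 37.4%. No match to TGACGTCA (the CRE site) or TGANTCA (the AP-1 site) lay in any of the 6 windows, and 1.79% and 7.81% of all windows held these. The 6 windows were rich in G and C, from 59.0% in Tuba1a to 77.7% in Map2, where the median of all windows was 52.7%. A match describes the letters and is no evidence that a factor binds there.

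Across the 10 genes, Prph, Tubb3, Map1b and Stmn2 rose in MOC1 libraries by 1.21 to 1.31 times under the main scaling, and none was called higher when libraries were scaled to other neuronal genes, where Stmn2 turned to -0.01 on the log2 scale. These 4 of 10 compare with 2.34% of the 16817 genes tested that were called higher, by edgeR's quasi-likelihood test with sex as a term and Benjamini-Hochberg adjustment at 0.05. No member was called lower, and 4.28% of all genes tested were. The median log2 fold change of the 10 was 0.27, beside -0.03 over all genes tested, and 8 of the 10 were above 0. The CPM values of Prph, Map1b and Stmn2 did not overlap between the groups, which held for 2.15% of genes in this direction. Together the 10 genes took between 1.56% and 1.85% of gene counts in MOC1 libraries and between 1.28% and 1.503% in sham libraries. These increases appeared beside the higher pan-neuronal sum and the lower satellite glia sum given above, and the values scaled to other neuronal genes follow the single genes. In what follows a level is CPM after TMM scaling, a library scaling that uses most genes, and a fold change is given on the log2 scale with its standard error (SE).

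Nefl encodes the light subunit, the core on which neurofilaments assemble, and lies at chr14:68083863-68089095 on the plus strand (GRCm38). Its level ranged from 1802 to 2476 CPM in the 6 MOC1 libraries, with a median of 2136. The 5 sham libraries held 1646, 1898, 1994, 1875 and 2045 CPM, in the order female 1, 2, 3 and male 1, 3. The groups overlapped, with the 3 MOC1 females and MOC1 male 2 above every sham library and MOC1 males 1 and 3 inside the sham range. The log2 difference was 0.17 ± 0.08 (SE) and did not pass the test (adjusted p = 0.211).

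Nefm, the medium subunit, lies at chr14:68082590-68124846 on the minus strand, so its annotated span covers Nefl on the opposite strand, and the strand-specific counting keeps the 2 genes apart. MOC1 libraries ranged from 1348 to 2024 CPM with a median of 1868. Sham libraries held 1158, 1635, 1564, 1494 and 1516 CPM in the same order. Sham female 1 was lowest of all, and the MOC1 library labelled male 1 fell below 4 of the 5 sham libraries. The log2 difference was 0.27 ± 0.10 (adjusted p = 0.107), which passed without MOC1 male 1 (adjusted p = 0.0332) and in DESeq2 (adjusted p = 0.0414).

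Nefh, the heavy subunit whose long phosphorylated tail projects from the filament, lies at chr11:4938754-4948064 on the minus strand. It spanned 699.8 to 1122 CPM in MOC1 libraries, with a median of 1006, and read 570.4, 917, 858, 850.3 and 754 CPM in sham libraries. MOC1 male 1 and sham female 1 were again the lowest of their groups. The log2 difference of 0.26 ± 0.12 did not pass (adjusted p = 0.234), and it was 0.16 without sham female 1. Thus none of the 3 subunits passed the test, although each mean was higher in MOC1 libraries: 2130 ± 237 against 1892 ± 154 CPM for Nefl, 1772 ± 256 against 1473 ± 184 for Nefm and 943 ± 163 against 790 ± 136 for Nefh (SD, n = 6 and 5).

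Ina encodes alpha-internexin, a neurofilament partner best known from the central nervous system, at chr19:47014698-47025327 on the plus strand. It was much the scarcer filament gene here. MOC1 libraries held from 38.7 to 58.3 CPM, with a median of 54.9, and sham libraries held 50.1, 39.6, 58.4, 64.4 and 67.3 CPM. The groups overlapped widely, and the sham males were the highest. Its log2 difference of -0.15 ± 0.13 did not pass (adjusted p = 0.624), and it ran from -0.25 without MOC1 female 2 to -0.09 without sham female 3.

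Prph encodes peripherin, the filament protein of peripheral neurons, at chr15:99055174-99058978 on the plus strand. Every MOC1 library, from 1297 to 1446 CPM with a median of 1346, lay above every sham library, at 1045, 1013, 1133, 1256 and 1064 CPM. The highest sham value, in male 1, lay just below the lowest MOC1 value, and MOC1 male 1, lowest for the 3 neurofilament subunits, was highest for Prph. The level was 1357 ± 53.1 against 1102 ± 96.4 CPM (SD, n = 6 and 5), a fold of 1.22 with a 95% interval of 1.12 to 1.34. The log2 difference of 0.29 ± 0.06 passed the test (adjusted p = 0.00565) and passed with each of the 11 libraries left out in turn.

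**Figure D1:**
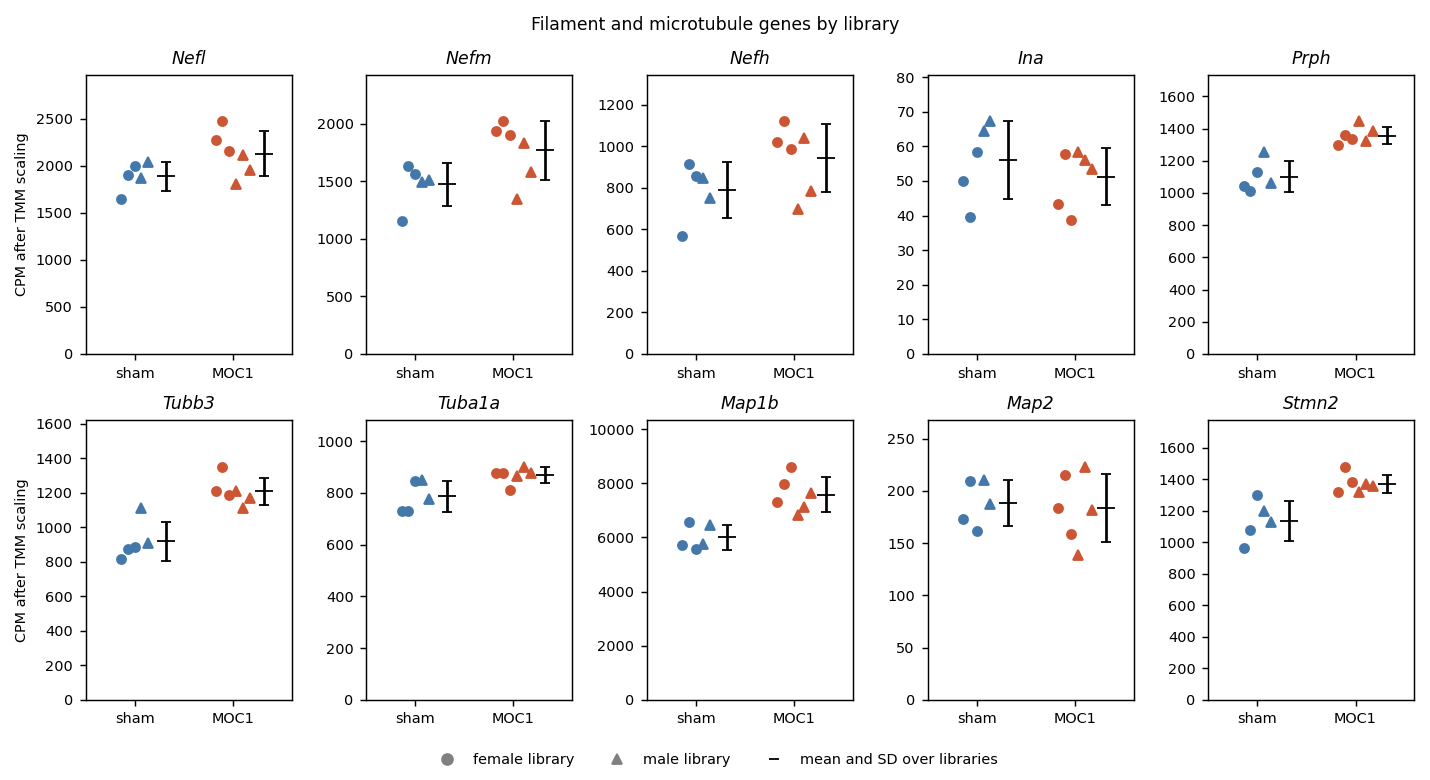
Levels of the 10 genes in each library, in CPM after TMM scaling, with sham libraries beside MOC1 libraries, circles for female and triangles for male libraries, and the mean with its SD over libraries. Prph, Map1b and Stmn2 have every MOC1 point above every sham point, Tubb3 is separated except for sham male 1, and the neurofilament subunits, Ina, Tuba1a and Map2 overlap.

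Tubb3 encodes the beta-tubulin isotype typical of neurons, at chr8:123411424-123422015 on the plus strand. It had the largest fold of the 10. MOC1 libraries ranged from 1112 to 1350.0 CPM with a median of 1200.2, and sham libraries held 816, 877, 884, 1112 and 911 CPM. The groups met at a single point, where sham male 1 (1112.5 CPM) stood just above MOC1 male 2 (1111.6 CPM). The fold was 1.31 with a 95% interval of 1.17 to 1.46, and the log2 difference of 0.39 ± 0.08 passed (adjusted p = 0.00308), also with each library left out in turn.

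Tuba1a encodes an alpha-tubulin abundant in neurons and lies at chr15:98949837-98953703 on the minus strand. It held 809 to 900.1 CPM in MOC1 libraries, with a median of 877, and 728, 729, 847, 849.9 and 777 CPM in sham libraries. Sham female 3 and male 1 reached into the MOC1 range. The log2 difference of 0.14 ± 0.06 did not pass (adjusted p = 0.241). The count of this gene is uncertain, because 68.2% of the 75-base stretches of its transcripts occur word for word in transcripts of other genes, 34.2% in Tuba1b and 39.9% in Tuba1c. Reads that map to several places go to no gene in these files, and such multimapping reads were 8.84% to 11.3% of the counts in each file. The length of 75 bases was a choice, and the share of Tuba1a reads lost in this way was not measured. Also, 26.2% of its exon bases overlap the gene model Gm49450 on the same strand. The coding sequences of Tuba1a and Tuba1b have the same length, 1353 bases, and differ at 23 of them (98.3% identity), with a longest identical run of 281 bases. By contrast, no 75-base stretch of Nefl, Nefm, Nefh, Ina, Prph, Tubb3, Map1b or Map2 occurred in another gene's transcripts, and 0.25% of those of Stmn2 did.

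Map1b encodes a large microtubule-associated protein of growing and mature axons, at chr13:99421446-99516540 on the minus strand. It held more counts than any other member, in part because its exons span 15846 bases. MOC1 libraries ranged from 6823 to 8608 CPM with a median of 7478, and sham libraries held 5708, 6576, 5574, 5770.1 and 6445 CPM. All MOC1 libraries lay above all sham libraries, and the closest were MOC1 male 1 and sham female 2. The fold was 1.26 with a 95% interval of 1.15 to 1.39. The log2 difference of 0.34 ± 0.06 passed (adjusted p = 0.00264), and did so with each library left out in turn.

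Map2 encodes a microtubule-associated protein known for cell bodies and dendrites, at chr1:66175273-66442583 on the plus strand. It held 138 to 223 CPM in MOC1 libraries, with a median of 183, and 173, 209.5, 162, 211 and 187 CPM in sham libraries. The sham values fell inside the MOC1 range. The log2 difference was -0.04 ± 0.11 (adjusted p = 0.911), with a fold interval of 0.823 to 1.15.

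Stmn2 encodes a neuronal stathmin that binds tubulin dimers and is known for its role in axon growth and repair, at chr3:8509360-8561606 on the plus strand. MOC1 libraries ranged from 1317 to 1479 CPM with a median of 1363, and sham libraries held 967, 1079, 1303, 1199 and 1129 CPM. The groups did not overlap, but sham female 3 reached to just below the lowest MOC1 library. The fold was 1.21 with a 95% interval of 1.09 to 1.34, and the log2 difference of 0.27 ± 0.07 passed (adjusted p = 0.0249). This call was lost without MOC1 female 2 (adjusted p = 0.0814), without sham female 2 (adjusted p = 0.0706) and without sham male 3 (adjusted p = 0.0691), and it held in the other 8 of 11 fits.

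Levels per kilobase of exon allow a rough comparison between genes whose reads map to a single place. The length used is the union of all annotated exons, from 1803 bases for Tuba1a to 16449 for Map2. A gene with annotated exons that these cells do not use therefore reads too low, and exon use was not measured. Prph (621 ± 75.6), Nefl (598 ± 68.1) and Tubb3 (577 ± 93.9 CPM per kb, SD over 11 libraries) stood highest over all libraries together. Their order differed between the groups, with 560 for Nefl, 551 for Prph and 492.5 for Tubb3 in sham and 679 for Prph, 646 for Tubb3 and 630 for Nefl in MOC1 libraries (CPM per kb). Prph exceeded Nefl in 6 of 11 libraries and Nefl exceeded Tubb3 in 8, so these neighbours did not differ beyond their spread. Tuba1a (461 ± 33.9 CPM per kb) was below Tubb3 in all 11 libraries and above Map1b (434 ± 61.9) in 8, but its value is a lower estimate, since reads it shares with other tubulin genes go to no gene. Nefm (283 ± 46.0) followed, below Map1b in all 11. Stmn2 (226 ± 27.3) and Nefh (219 ± 41.3 CPM per kb) changed places from library to library, with Stmn2 higher in 6 of 11. Ina (16.5 ± 2.94) and Map2 (11.3 ± 1.63 CPM per kb) stood far below the other 8 genes, in the order given in 10 of 11 libraries. Among the 16817 genes tested, the levels per kilobase in sham libraries put Nefl at rank 26, Prph at 27, Tubb3 at 32, Tuba1a at 34, with the same limit, and Map1b at 39. Nefm, Stmn2 and Nefh held ranks 72, 108 and 111, and Ina and Map2 held ranks 2730 and 3997. On this measure the filament and microtubule genes of axons were among the most abundant messages of these libraries, apart from Ina and Map2.

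Other neuronal genes were also higher in MOC1 libraries. The 23 pan-neuronal genes had a median log2 fold change of 0.29, with 23 of 23 above 0 and 13 called higher, beside a median of 0.27 for the 10 members. Libraries were therefore also scaled to the summed counts of these 23 genes, and levels expressed per 10000 of those counts. Under this scaling the median over all genes moved from -0.03 to -0.31, so that 15.5% of genes were called lower and 0.178% higher in MOC1 libraries. Of the members, none was called higher and 1 was called lower, a share near that background. Prph stood at 1171 ± 48.6 against 1162 ± 67.9 per 10000 neuronal counts (log2 difference 0.00 ± 0.06, adjusted p = 0.970), and its groups overlapped. For Map1b the difference was 0.05 ± 0.07 (adjusted p = 0.698), for Stmn2 it was -0.01 ± 0.06 (adjusted p = 0.923) and for Tubb3 it was 0.10 ± 0.07 (adjusted p = 0.359). Tubb3 kept the highest estimate of the 10.

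The neurofilament subunits turned slightly below 0 on this scale, with log2 differences of -0.11 ± 0.07 for Nefl, -0.01 ± 0.09 for Nefm and -0.02 ± 0.11 for Nefh, none of which passed. Ina was the member called lower, at 44.3 ± 7.26 against 58.8 ± 9.84 per 10000 neuronal counts (log2 difference -0.44 ± 0.13, adjusted p = 0.0268). Its groups still overlapped, since sham female 2 was among the low libraries. Map2 (log2 difference -0.33 ± 0.12, adjusted p = 0.0743) did not pass. Tuba1a did not pass either (-0.15 ± 0.06, adjusted p = 0.102), although its groups no longer overlapped, with 679 to 794 in MOC1 and 806 to 860 per 10000 neuronal counts in sham libraries. Groups without overlap occurred for 12.0% of all genes under this scaling. When the log2 satellite glia share entered the fit as a covariate, no member and no gene at all was called in edgeR, and 1368 genes had an unadjusted p under 0.05. That share does not overlap between the groups, so the effects of the covariate and of the tumour cannot be told apart well in these 11 libraries.

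**Figure D2:**
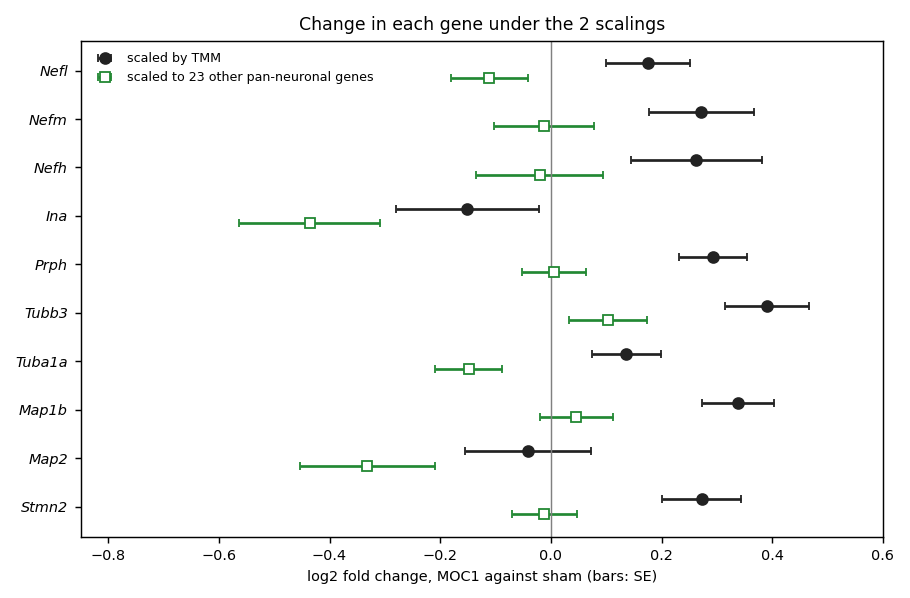
Log2 fold change of MOC1 against sham for each of the 10 genes, with its SE, under TMM scaling and under scaling to the 23 pan-neuronal genes. Each estimate lies lower under the neuronal scaling, where Prph, Map1b, Nefm, Nefh and Stmn2 sit within 0.05 of 0 and Ina and Map2 lie lowest.

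Ratios of 2 genes within a library do not depend on how libraries are scaled, and 8 were compared by two-sided exact permutation tests (462 regroupings, smallest possible p 0.00216). No ratio among the filament genes passed the test. The count ratio of Nefm to Nefl ranged from 0.748 to 0.883 in MOC1 and from 0.703 to 0.861 in sham libraries (log2 difference 0.10, adjusted p = 0.253). For Nefh to Nefl the log2 difference was 0.09 (adjusted p = 0.465, exact permutation test), with 0.025 without sham female 1 and 0.15 without sham female 2, and for Prph to Nefl it was 0.14 (adjusted p = 0.343, exact permutation test). Ina to Nefl was lower by a log2 difference of -0.29, which did not pass (adjusted p = 0.253, exact permutation test). Nefh to Prph, which sets a gene of large neurons against a gene of small neurons, differed by -0.05 (adjusted p = 0.797, exact permutation test).

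The ratios with the clearest shift paired 2 microtubule genes. Tuba1a to Tubb3 was 0.650 to 0.810 in MOC1 libraries, with a median of 0.719, and 0.764 to 0.958 in sham libraries, with a median of 0.853. The log2 difference of -0.25 had an unadjusted p of 0.00866 and an adjusted p of 0.0693 (exact permutation test), and Tuba1a carries the counting uncertainty given above. Map2 to Map1b was 0.0185 to 0.0313 in MOC1 and 0.0290 to 0.0365 in sham libraries (log2 difference -0.38, unadjusted p = 0.0195, adjusted p = 0.0779, exact permutation test). Both missed the threshold with all libraries. Tuba1a to Tubb3 passed without MOC1 male 2 (adjusted p = 0.0317, exact permutation test) or without sham male 1 (adjusted p = 0.0381, exact permutation test). Map2 to Map1b passed without MOC1 male 2 (adjusted p = 0.0317, exact permutation test). Stmn2 to Tubb3 differed by -0.12 (adjusted p = 0.253, exact permutation test).

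**Figure D3:**
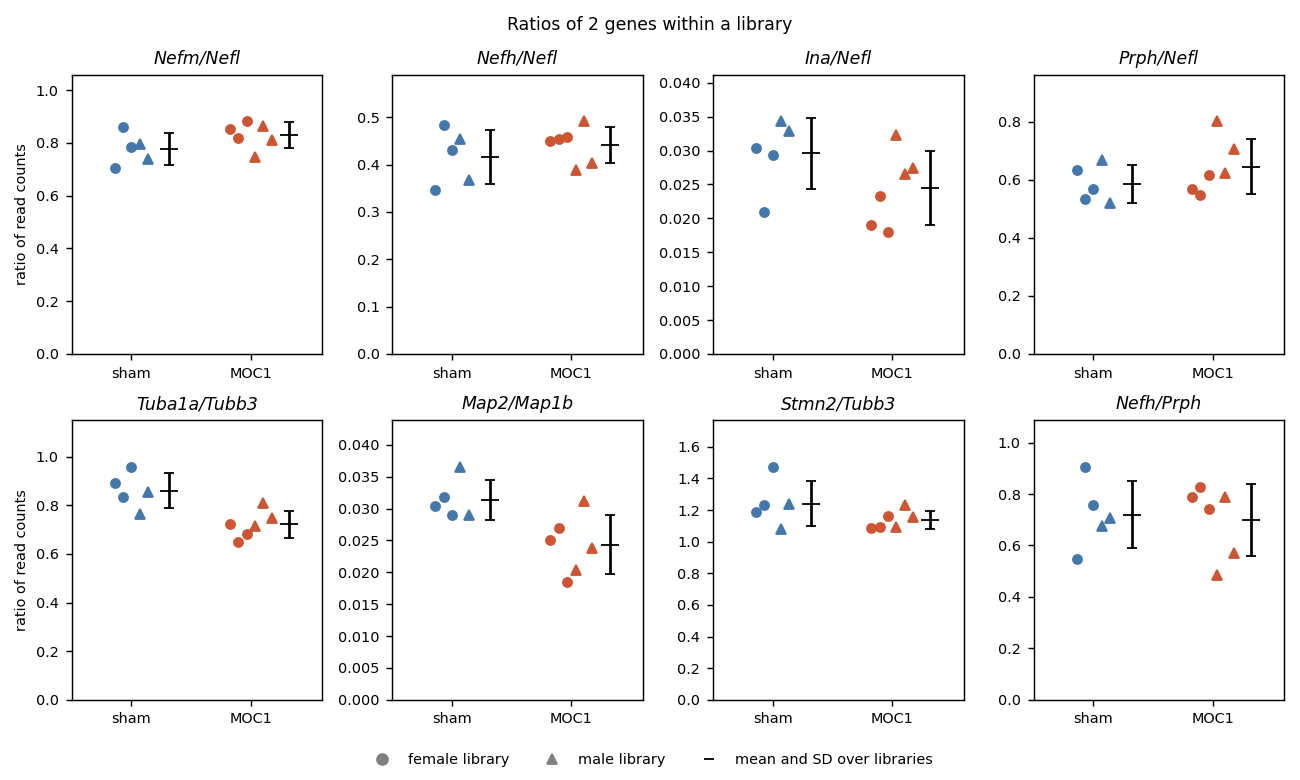
Ratios of the read counts of 2 genes in each library, for the 8 pairs compared, with circles for female and triangles for male libraries and the mean with its SD. All 8 pairs overlap between the groups, and Tuba1a/Tubb3 and Map2/Map1b show the largest separation.

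Within each sex, all 10 estimates were higher in females than in males, although for Ina both were below 0 (-0.08 and -0.23). The median log2 difference of the 10 was 0.32 in females and 0.10 in males. It was 0.32 and 0.24 for the 23 pan-neuronal genes, and -0.04 and 0.01 over all genes tested. Tubb3 rose in females (log2 difference 0.54 ± 0.09, adjusted p = 0.00148), as did Map1b (0.42 ± 0.08, adjusted p = 0.00657), Prph (0.32 ± 0.08, adjusted p = 0.0335) and Nefm (0.43 ± 0.12, adjusted p = 0.0460). These are 4 of 10, where 1.33% of genes were called higher in females. In males, with 2 sham libraries, no member passed, and 7 of 10 estimates were above 0. In edgeR 2 members, Prph and Map1b, had an unadjusted p under 0.05 in males, where 3.13% of all genes were higher at that p and 0.166% were called higher after adjustment. Nefl stood at 0.32 ± 0.09 in females (adjusted p = 0.0519) and at -0.00 ± 0.10 in males. The difference between the sexes itself was not called for any member, nor for any of the 16817 genes in edgeR (0.00% called). At an unadjusted p under 0.05 in edgeR, the interaction took in Tubb3 (0.34 ± 0.13) and Nefl (0.32 ± 0.13), both with adjusted p = 1.00, against 4.21% of all genes.

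Within groups, some members moved together from library to library. After the mean of each group of condition and sex was subtracted, log2 CPM of Nefm and Nefh had a Pearson r of 0.96 over the 11 libraries, Nefl and Nefm of 0.87, and Nefl and Nefh of 0.80. Prph moved with Tubb3 (r = 0.79) and Tuba1a with Stmn2 (r = 0.78), whereas Prph stood apart from the neurofilament subunits (r from -0.21 to -0.03). Map1b ran opposite to Tuba1a (r = -0.64), Prph (r = -0.52) and Ina (r = -0.52). These are descriptions over 11 libraries that share their scaling, and 4 means were removed from them. In the same measure, over 9710 other genes with a mean of at least 10 CPM, Nefl was most like Cacybp and Nrip3 (r = 0.94 for each). Nefh was most like Stbd1 (r = 0.97) and Nudt4 (r = 0.96), and Prph like Ankrd13b (r = 0.95) and Dctn2 (r = 0.94). Map1b was most like Mmp15 (r = 0.95) and Nalcn (r = 0.94), and Stmn2 like Cend1 (r = 0.96) and Lhfpl1 (r = 0.95). These are the highest of 9710 values over few libraries, so the selection itself yields a high r, and no link between the genes was tested.

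**Figure D4:**
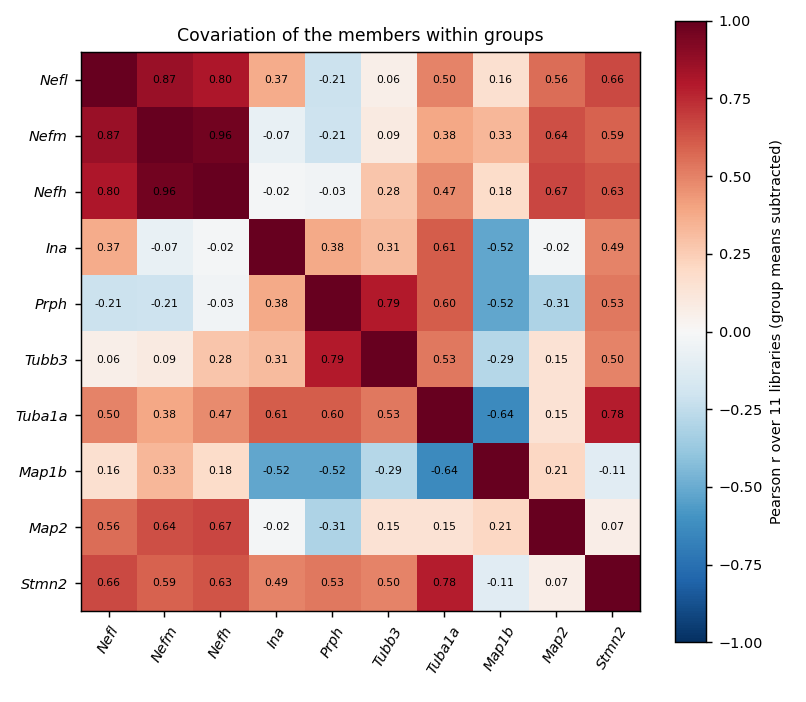
Pearson r between each pair of the 10 genes over 11 libraries, from log2 CPM after the mean of each group of condition and sex was subtracted, on a colour scale from -1 to 1. The 3 neurofilament subunits form a block with r from 0.80 to 0.96, Prph pairs with Tubb3 at 0.79, and Map1b is opposite to Tuba1a at -0.64.

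The neuron classes known for these filaments were looked at beside them. Markers of neurons with large myelinated axons, where neurofilaments are abundant, summed to 1574 ± 172 CPM with MOC1 tumours and to 1607 ± 139 CPM without (adjusted p = 0.816, an exact permutation test over 10 lists). Peptidergic neuron markers summed to 3126 ± 347 against 2459 ± 140 CPM (adjusted p = 0.00866, exact permutation test), and nonpeptidergic markers to 1851 ± 182 against 1633 ± 93.7 CPM (adjusted p = 0.0397, exact permutation test). Within the myelinated list, Ntrk2 lay between 183 and 362 CPM in MOC1 and between 441 and 570 CPM in sham libraries, while Scn4b overlapped, at 216 to 400.0 and 233 to 355 CPM. The sum hides that 11 of the 13 genes were above 0, with a median log2 fold change of 0.31, and that Ntrk2 was the only one called lower. Cntnap2, named after its values were seen, was the only one called higher (0.41 ± 0.08, adjusted p = 0.00322). On the neuronal scale the medians were 0.02 for the myelinated list, with none higher and 2 lower, and 0.03 for the peptidergic list, with 1 higher and 1 lower. The nonpeptidergic list had a median of -0.09 there and no call in edgeR. Of all genes tested, 0.178% were called higher and 15.5% lower on that scale. The part of the neuron classes in the members' values was not tested.

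Other genes of the axonal skeleton were counted by lists of their roles. For comparison, 2.34% of all genes tested were called higher and 4.28% lower. On the neuronal scale 0.178% were called higher and 15.5% lower. Among 20 genes of kinesin and dynein transport, which move cargo along microtubules, 19 were above 0, 7 were called higher and none lower, with a median log2 fold change of 0.22. Kif5a, a neuronal kinesin heavy chain, rose from 1651 ± 56.7 to 2074 ± 149 CPM (log2 difference 0.33 ± 0.06, adjusted p = 0.00214). The kinesin light chains rose too, Klc1 by 0.23 ± 0.06 (adjusted p = 0.0169) and Klc2 by 0.29 ± 0.07 (adjusted p = 0.0216). Kif5a kept its call with each library left out, Klc1 lost it without MOC1 female 2 or sham male 3, and Klc2 kept it in 6 of 11 fits. The count of 7 ranged from 1, without MOC1 female 2, to 9 over these fits, and was 12 in DESeq2. On the neuronal scale none was higher and 1 was lower, and Klc1 turned to -0.06.

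Of 10 other alpha- and beta-tubulin isotypes, 3 were called higher and none lower, with a median of 0.19, beside 2.34% of all genes called higher. Tubb2b rose from 265 ± 41.2 to 353 ± 40.7 CPM (0.41 ± 0.10, adjusted p = 0.0162), although it shares 27.5% of its 75-base stretches with Tubb2a. Tubb5 rose by 0.23 ± 0.06 (adjusted p = 0.0385) and Tubb4a by 0.25 ± 0.07 (adjusted p = 0.0386), and both turned below 0 on the neuronal scale (-0.06 and -0.04). None of the 3 was called without MOC1 female 2, and over the 11 fits Tubb2b kept its call in 10, Tubb5 in 4 and Tubb4a in 2. Of the 20 other microtubule-binding genes, 2 were called higher and none lower, with a median of 0.12. Map7d2, a binder of kinesin-1, rose from 349 ± 46.8 to 473 ± 34.4 CPM (0.43 ± 0.09, adjusted p = 0.00433), and Map1a, a relative of Map1b, from 1757 ± 199 to 2268 ± 254 CPM (0.37 ± 0.09, adjusted p = 0.0105). Both kept their call with each library left out. On the neuronal scale 5 of these 20 were called lower and none higher, beside 15.5% and 0.178% of all genes.

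Of 14 enzymes that modify tubulin, 3 were called higher and none lower, with a median of 0.12, beside 2.34% of all genes called higher. Agtpbp1, which trims glutamates from tubulin tails, rose by 0.26 ± 0.07 (adjusted p = 0.0216), and the tubulin glutamylases Ttll7 (0.21 ± 0.06, adjusted p = 0.0355) and Ttll1 (0.33 ± 0.10, adjusted p = 0.0494) rose as well. No gene of this list was called without MOC1 female 2 or without sham male 1, and over the 11 fits Agtpbp1 kept its call in 9, Ttll7 in 4 and Ttll1 in 2. Without sham female 1, MOC1 female 3 and MOC1 male 2 together, none was called either. On the neuronal scale none of the 14 was higher and 2 were lower, a share near the 15.5% of all genes. The median there was -0.17, and Agtpbp1 and Ttll7 turned to -0.03 and -0.07. Of 9 other stathmins and severing enzymes, 1 was called higher: Stmn3, a stathmin of neurons, rose from 315 ± 23.8 to 392 ± 44.8 CPM (0.32 ± 0.08, adjusted p = 0.0232). That call was lost without MOC1 female 2 or 3, sham female 1 or 2, or sham male 3, and kept in the other 6 of 11 fits, and it was lost with the same 3 libraries left out together (adjusted p = 0.106). The median of the 9 was -0.07, and on the neuronal scale none was higher and 2 were lower, beside 15.5% of all genes called lower.

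The list of other intermediate filament genes and filament linkers held 14 genes, of which 11 were tested and Des, Krt8 and Krt18 fell under the filter. The genes that fell are known for non-neuronal cells. Vim, the vimentin of glia and connective tissue cells, fell by 0.85 ± 0.13 on the log2 scale (566 ± 110 against 1035 ± 180 CPM, adjusted p = 2.17e-04), without overlap. Nes, known for glial and vessel cells in adult tissue, fell by 1.74 ± 0.33 on the log2 scale (16.2 ± 6.18 against 65.8 ± 58.2 CPM, adjusted p = 0.00224), with overlap. With each library left out in turn, the log2 difference of Nes ran from -1.91 to -1.27 and kept its call. Plec, the linker plectin, rose by 0.42 ± 0.11 (529 ± 67.3 against 393 ± 66.1 CPM, adjusted p = 0.0208), a call that was lost without MOC1 female 3 or without MOC1 male 3. Beside these, 13 of 14 satellite glia markers and 4 of 12 Schwann cell markers were called lower, and none of either list was called higher. Of all genes tested, 4.28% were called lower. Apoe, the most abundant satellite glia marker, lay between 1642 and 2832 CPM in MOC1 and between 4207 and 5364 CPM in sham libraries. Schwann cell markers summed to 929 ± 56.5 against 1211 ± 112 CPM, and fibroblast markers to 69.6 ± 5.43 against 128 ± 36.1 CPM (adjusted p = 0.00541 for each, exact permutation test). The sums of endothelial and mural, macrophage and squamous epithelium markers did not pass (adjusted p = 0.0866, 0.560 and 0.816, exact permutation test). All 9 endothelial and mural markers were nevertheless below 0, with a median of -1.47, and 2 were called lower. These, named after their values were seen, were Cspg4 (adjusted p = 0.00534) and Cldn5 (adjusted p = 0.0481), and sham female 1 held most of the sham sum. The epithelial and tumour markers summed to at most 10.4 CPM in any library, and 3 of the 10 were at 0 in all.

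**Figure D5:**
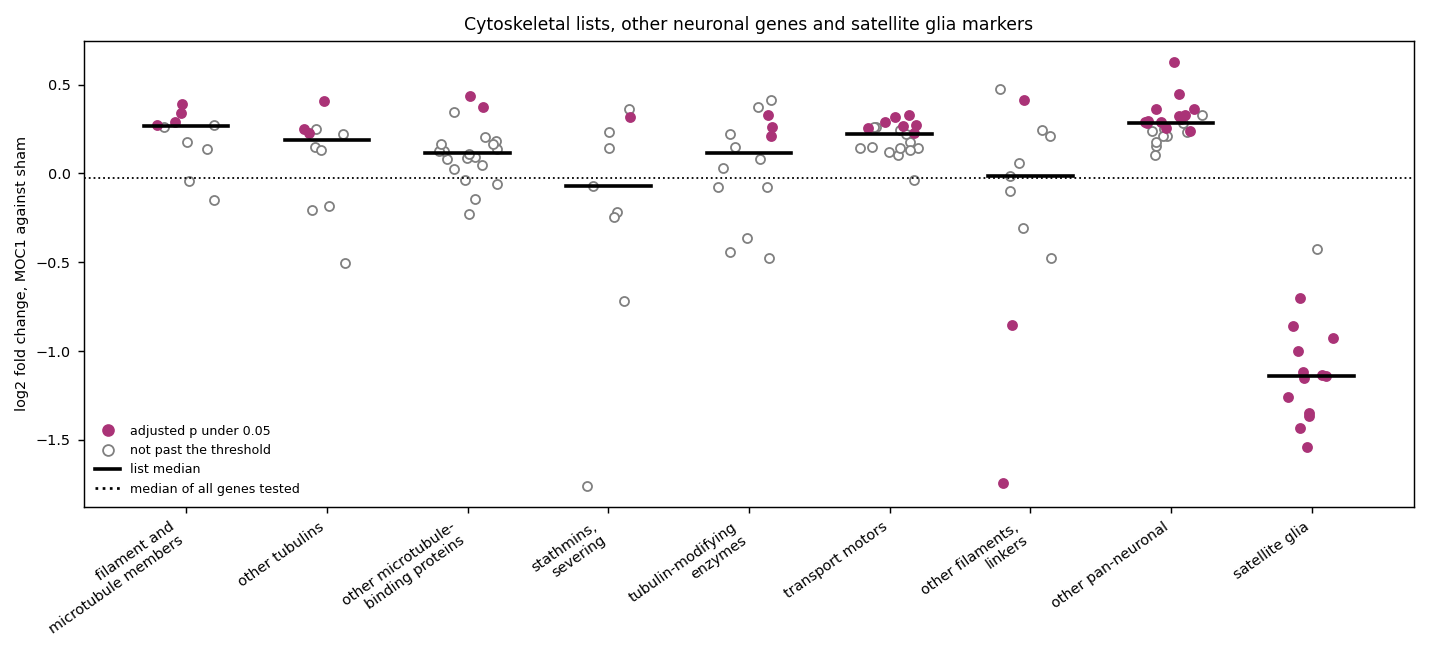
Log2 fold change of MOC1 against sham for each gene of the members and of the lists of related genes and markers, with genes that passed the test marked. The members and the pan-neuronal genes spread around medians of 0.27 and 0.29, and the satellite glia markers around -1.14.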

How the data were processed

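The deposited files hold the authors' raw read counts per gene, whole numbers with no normalization, from STAR with strand-specific counting, per the file headers and the series design. The submitters' processing notes name Trimmomatic 0.35, STAR 2.7.1a and RSEM, with GRCm38 (mm10) as the build. For the authors' annotation release, no source used here gives a name. In all, 55141 of the 55401 gene identifiers matched GENCODE vM21, which gave exon lengths. Rows that name no gene held 18.7% to 21.5% of counts and were left out.

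The fits used edgeR 4.0.16 under R 4.3.3: filterByExpr over the 4 condition-by-sex groups (16817 genes kept), TMM scaling, a quasi-likelihood F test with sex as an additive term, and Benjamini-Hochberg adjustment with a threshold of 0.05. A 4-group fit gave the contrasts within each sex and the interaction. The SE is the log2 difference over the square root of F. Ratios and marker sums were compared by two-sided exact permutation tests. Alternatives were DESeq2 1.42.0, its size factors, scaling to the pan-neuronal genes, no low-count filter, no sex term, the replicate number as a block, a satellite glia covariate, a pseudocount of 1 for ratios, and libraries left out. The code was first tested on simulated data. Of 50 genes changed at each size, it called 2 at 1.25 times, 9 at 1.5 times, 22 at 2 times and 34 at 4 times. There were 5 false calls. Small changes were thus mostly missed, so a gene that did not pass may still differ. The changed genes were drawn at random over all levels, so these shares do not give the power for the members.

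The members, the gene lists and the alternatives were chosen with earlier results of these data known. Named genes are the 10 members, up to 3 called genes per direction of each list of related genes, the 2 genes most like each of 6 members, and at most 2 abundant markers per list. Some items that this rule takes are not reported here. No library pair of a group agreed within sampling noise (chi-square per degree of freedom from 13.9 to 42.4).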

Additional observations from a re-analysis of the deposited data

How the results depend on the processing

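With the low-count filter dropped, DESeq2, its size factors, no sex term or 3 libraries left out, Prph, Tubb3, Map1b and Stmn2 kept their calls. Scaling to the pan-neuronal genes moved the total of called genes from 1113 to 2644 and the members called from 4 to 1, and the satellite glia covariate moved both to 0. Under the neuronal scaling the log2 difference turned to -0.11 for Nefl, -0.013 for Nefm, -0.021 for Nefh, -0.15 for Tuba1a and -0.012 for Stmn2. It also turned to -0.061 for Tubb5, -0.038 for Tubb4a, -0.025 for Agtpbp1, -0.075 for Ttll7 and -0.062 for Klc1. With the satellite glia covariate it turned to 0.43 for Map2, -0.31 for Tubb2b, -0.10 for Tubb5, -0.11 for Map1a, -0.094 for Stmn3, -0.026 for Agtpbp1, -0.014 for Ttll7, -0.026 for Kif5a, -0.065 for Plec and 0.34 for Vim, and no gene passed. Without the filter Nefm and Nefh passed as well (adjusted p = 0.00217 and 0.00700, edgeR), and 1316 genes were called in females, 469 in males and 53 by interaction. The cause of these shifts was not tested. With each library left out in turn, 816 to 1129 genes were called in all, 3 to 5 members, 345 to 876 genes in females, 62 to 340 in males and 0 to 2 by interaction. The females' total fell to 345 without MOC1 female 2, 411 without sham female 2 and 448 without MOC1 female 3. The males' total was 340 without MOC1 female 3, 99 without MOC1 male 1, 91 without sham male 1, 81 without MOC1 male 3 and 62 without sham male 3. Interaction calls appeared only without MOC1 female 1, where there were 2, and without sham female 1. Over these fits the log2 difference of Map2 ranged from -0.11 to 0.031, above 0 without MOC1 female 3, MOC1 male 1, sham female 2 or sham male 1. The log2 ratios ranged from -0.29 to -0.21 for Tuba1a to Tubb3, from -0.46 to -0.31 for Map2 to Map1b and from -0.14 to 0.054 for Nefh to Prph, the last above 0 without MOC1 male 1, MOC1 male 3 or sham female 2. Of the others, Nefh to Nefl ranged from 0.025 to 0.15, Nefm to Nefl from 0.060 to 0.13, Ina to Nefl from -0.41 to -0.20, Prph to Nefl from 0.071 to 0.19 and Stmn2 to Tubb3 from -0.17 to -0.056, and none passed. Deviations of same-numbered libraries correlated at -0.09 to 0.06 over 15 pairs, and those of other pairs at -0.10 to 0.15. Of the 11 libraries, 2 correlated best with their own number. Deviations were taken within groups of 2 or 3 libraries, where they cancel, so this measure cannot decide whether the replicate numbers pair the libraries. With the replicate block 1090 genes were called and the same 4 members, and Ttll1 lost its call (adjusted p = 0.0862). Among the members the SE was largest for Ina (0.13), Nefh (0.12) and Map2 (0.11).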
